A study of Mus musculus with 6 samples.

Results

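Granins and the proteins that turn them into peptides were measured as RNAs in LARP1 precipitates of mouse dorsal root ganglia. These ganglia hold the cell bodies of sensory neurons. The set was chosen by Ensembl gene identifier and holds 8 of the 16976 genes of the count table: the granins Scg2, Chga, Chgb and Vgf, the convertase-binding proteins Scg5 and Pcsk1n, and the enzymes Cpe and Pam. All 8 identifiers were present in the table. The samples were wild-type mice with sciatic nerve injury (injured) and without it (uninjured), each with 3 libraries labelled as replicates; the labels give no strain, sex, age or time after injury. Whole ganglia were lysed, LARP1 was pulled down by antibody, and the recovered RNA was sequenced as amplified nanopore cDNA, so both groups share the antibody and the wild-type genotype.

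Neurons and endocrine cells pack peptides into dense-core vesicles, which are released on demand. Granins are acidic proteins that help to form and fill these vesicles and are themselves precursors of peptides. Prohormone convertases cut precursors at pairs of basic residues. Carboxypeptidase E then trims the exposed basic residues, and the enzyme encoded by Pam converts a terminal glycine into the amide that many neuropeptides need. Sensory neurons release several such peptides, among them calcitonin gene-related peptide and substance P. LARP1 binds RNA and is best known for holding the cap and the adjoining pyrimidine run of mRNAs with a terminal oligopyrimidine (TOP) start.

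The annotated transcription starts of the set are shown first, because LARP1 is best known for binding mRNAs with a TOP start. Each sequence runs from 10 bases before to 20 bases into the annotated transcript, 30 bases in all, on the strand of the gene, with the first 5 transcribed bases in capitals. The sequences are from RefSeq, build GRCm38.p6, which differs from the build GRCm39 of the counts, and were matched by symbol for 6 of the 8 genes. Vgf and Cpe had no match.
Scg2, chr1:79440007-79440036, minus strand: tccggtgctgAAACGgcccgagccctcact
Chga, chr12:102554931-102554960, plus strand: gtgcgtgtgcGTGTAtataaaagccggcat
Chgb, chr2:132781632-132781661, plus strand: cctgcccttcATAAGagccaggcctgcgcc
Scg5, chr2:113829072-113829101, minus strand: cctgggtggaCCGAGgtttcggagggaggt
Pcsk1n, chrX:7919812-7919841, plus strand: ggggagggggCAGGCtcctggatgtgcgca
Pam, chr1:98095627-98095656, minus strand: gggagcgggcGGTCCcggagcccagcgcgc
A TOP start was searched as a C at the first transcribed base followed by at least 4 bases that are each C or T, on the transcribed strand only. It was found in 0 of the 6 genes, counting a further annotated start of Pam, and in 2.51% of 32851 annotated starts in the same table. Scg5 and Pcsk1n began with C, as did 16.3% of all starts, but each had only 2 pyrimidines among its first 5 bases. An annotated start is not a start measured in these ganglia: in Chga the TA-rich run that follows the capitals lies inside the annotated transcript.

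A cAMP response element, TGACGTCA, was searched in the same windows of 250 bases before to 50 bases after each start, because several granin genes are textbook targets of the factors that bind it. The word is its own reverse complement, so both strands are covered. It occurred in 2 of the 6 genes and in 1.79% of all windows. In the stretches below it stands in capitals, 68 bases before the start of Scg2 and 72 bases before that of Chgb.
Scg2, chr1:79440076-79440105, minus strand: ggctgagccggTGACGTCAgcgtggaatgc
Chgb, chr2:132781559-132781588, plus strand: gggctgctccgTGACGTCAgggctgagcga
These are matches of letters. The 2 genes with a match differed in level in the precipitate, as described below: Scg2 was measured in every library, and Chgb had 1 count in all. Whether the word bears on level was not tested, and Vgf and Cpe had no sequence to search.

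The uninjured libraries held 116186 to 116608 counts and the injured libraries 211337 to 211879. Within a group the libraries differed on average by little more than counting noise. Over genes with at least 15 counts, the variance between libraries was 1.16 times (uninjured) and 1.12 times (injured) that of counting. A few genes disagreed much more, as Chga did among the uninjured libraries. The labels do not say that the libraries came from separate animals. The 3 libraries of a group were therefore counted as 1 sample. Levels are CPM, counts scaled to a library total of 1000000, group levels are those of the summed counts with 95% exact Poisson intervals, and ratios have 95% exact Clopper-Pearson intervals. These intervals cover counting error only. They take reads as independent, which reads amplified by PCR are not, so they may be too narrow. With 1 sample per group, a difference between the groups has no replicate check. No total RNA or control precipitate was analysed here, so a level in the precipitate can reflect how much of the RNA was present or how much of it was bound, which cannot be told apart. In whole ganglia, fewer cells of a type and less RNA per cell cannot be told apart either. Markers of neurons and other cells were not analysed here, because the table pairs its identifiers with no symbols.

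The question addressed by the design is which RNAs were more or less abundant with LARP1 after nerve injury. Within the set the answer was mixed. Vgf was 4.57 times and Pcsk1n 1.76 times as high in the injured precipitate, Scg2 was 1.79 times as high in the uninjured one, and the intervals of Cpe, Scg5, Pam and Chga included equal levels. Chgb was at the limit of detection in both groups.

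**Figure D1:**
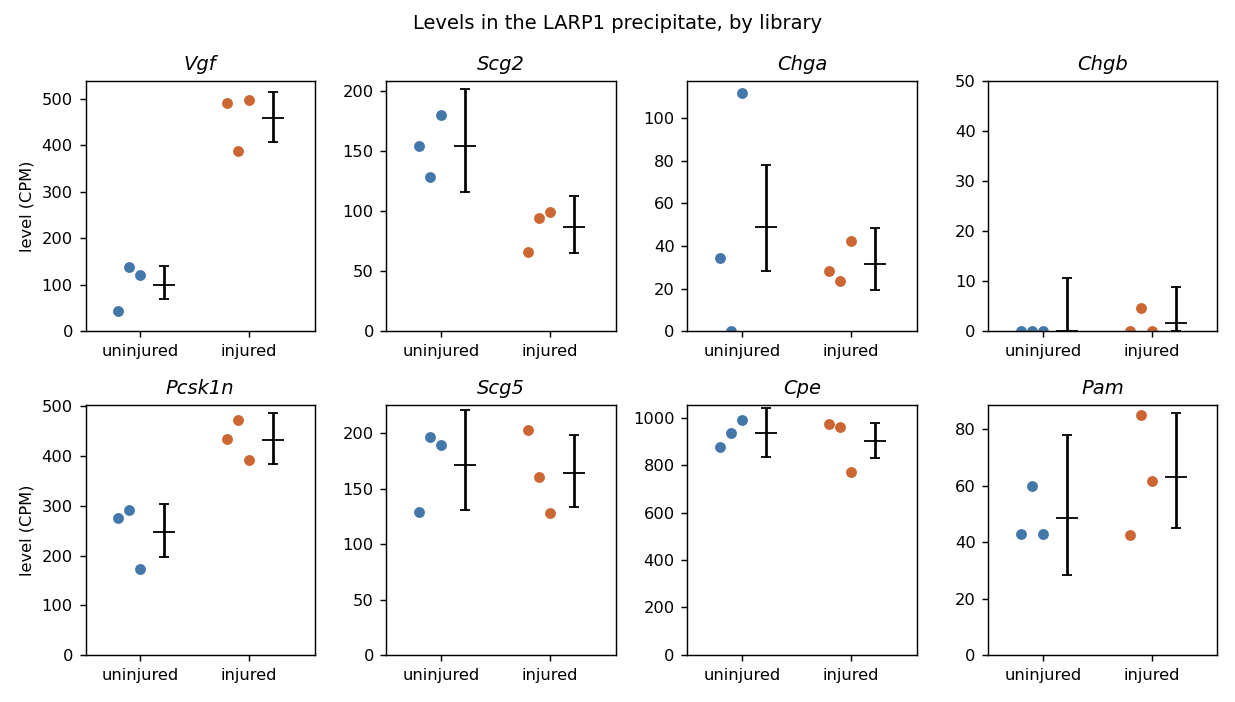
Level of each gene in CPM (vertical axes, each from 0) in the uninjured (blue) and injured (orange) libraries; points are libraries 1 to 3 from left to right, and black marks are the summed group with its 95% exact Poisson interval. The points of the groups are apart for Vgf, Scg2 and Pcsk1n and overlap for the other genes. Among the 7258 genes with more than 3 counts in both groups, the groups did not overlap for 37.6%. Chga spans 0 to 112 CPM among the uninjured libraries.

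Vgf (ENSMUSG00000037428) encodes a granin-like precursor named for its induction by nerve growth factor, from which several secreted peptides are cut. Without injury, the libraries held 5, 16 and 14 of its counts, or 43.0, 137 and 120 CPM. With injury, they held 104, 82 and 105, or 491, 388 and 497 CPM. Every injured library was above every uninjured one, and the lowest injured level was 388 CPM against a highest uninjured level of 137 CPM. The first uninjured library was the low one. A spread among the 3 uninjured libraries at least as large, by chi-square, was seen in 6.72% of the 3827 genes with at least 15 counts there. Summed by group, the level was 100.3 CPM (69.8 to 139) without injury and 459 CPM (407 to 514) with injury, and the ratio was 4.57 (3.21 to 6.69). Without the first uninjured library the ratio was 3.56, and leaving out each of the other libraries in turn gave 4.38 to 5.61.

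Scg2 (ENSMUSG00000050711) encodes secretogranin II, the precursor of the peptide secretoneurin. Its counts were 18, 15 and 21 without injury and 14, 20 and 21 with injury. At the greater depth of the injured libraries these nearly equal counts are different levels: 155, 129 and 181 CPM without injury, and 66.1, 94.6 and 99.3 CPM with it. The groups did not overlap, and all 3 injured libraries were the lower ones. Summing gave 155 CPM (116 to 202) for the uninjured group and 86.7 CPM (65.3 to 113) for the injured group, so that Scg2 stood 1.79 times higher (1.20 to 2.65) in the uninjured precipitate. Leaving out single libraries gave ratios of injured to uninjured of 0.516 to 0.627, against 0.560 with all.

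Chga (ENSMUSG00000021194) encodes chromogranin A, the granin most used as a marker of endocrine secretory granules. Uninjured libraries gave 4, 0 and 13 counts of it, and injured ones 6, 5 and 9. The uninjured libraries thus spanned 0 to 112 CPM, while the injured ones lay between 23.7 and 42.6 CPM, inside that span. Only 23 of the 3827 genes with at least 15 uninjured counts (0.601%) had libraries that disagreed as much. Its summed level was 48.7 CPM (28.4 to 78.0) in uninjured and 31.5 CPM (19.3 to 48.7) in injured reads, for a ratio of 0.647 (0.322 to 1.32). The direction rested on 1 library: without the third uninjured library the ratio was 1.83, and without the second it was 0.431. No difference between the groups could be resolved for Chga.

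Chgb (ENSMUSG00000027350) encodes chromogranin B, another granule-forming granin. None of the 349027 uninjured counts was assigned to it, and of the 634615 injured counts 1 was, in the second library. The 95% exact Poisson interval reached from 0 to 10.6 CPM in the uninjured group and from 0.0399 to 8.78 CPM around the injured level of 1.58 CPM. Both groups were under a separate floor of 3 counts (8.60 CPM in the uninjured and 4.73 CPM in the injured group), so no ratio is given.

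The products of Scg5 and Pcsk1n bind prohormone convertases. Scg5 (ENSMUSG00000023236) encodes 7B2, which helps convertase 2 to mature and inhibits it, and Pcsk1n (ENSMUSG00000039278) encodes proSAAS, which inhibits convertase 1/3 and is itself a source of peptides. The uninjured counts of Pcsk1n were 32, 34 and 20, or 275, 292 and 172 CPM. Its injured counts were 92, 100 and 83, or 434, 473 and 393 CPM. All 3 injured libraries were above all 3 uninjured ones. Summed, Pcsk1n rose from 246 CPM (197 to 304) to 433 CPM (384 to 488) in the injured reads, a 1.76-fold difference (1.38 to 2.27). The third uninjured library was the lowest, and without it the ratio was 1.53.

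Scg5 showed no such difference. It had 15, 23 and 22 counts without injury, or 129, 197 and 189 CPM, and 43, 34 and 27 counts with injury, or 203, 161 and 128 CPM. The highest and the lowest of the 6 levels were both injured libraries. Its summed level was 172 CPM (131 to 221) in the uninjured and 164 CPM (134 to 199) in the injured group, and the ratio of 0.953 had an interval from 0.687 to 1.33. A change of Scg5 as large as the 1.76-fold of Pcsk1n lay outside that interval. Within the same libraries, the ratio of Pcsk1n exceeded that of Scg5 1.84 times (1.21 to 2.80), a comparison that does not depend on the library totals.

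Cpe (ENSMUSG00000037852) encodes carboxypeptidase E, which removes the basic residues left after convertase cleavage, and it had the most counts of the set. Uninjured libraries gave 102, 109 and 115 counts (878, 935 and 990 CPM), and injured ones 206, 203 and 163 (972, 961 and 771 CPM). The groups overlapped, with the third injured library lowest. The group levels of 934 CPM (835 to 1041) and 901 CPM (829 to 978) gave a ratio of 0.965. Its interval of 0.841 to 1.11 was the narrowest of the set and left room for only a small difference between these 2 samples.

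Pam (ENSMUSG00000026335) encodes peptidylglycine alpha-amidating monooxygenase, which makes the terminal amide of peptides. Its counts were 5, 7 and 5 without and 9, 18 and 13 with injury, or 43.0, 60.0 and 43.0 CPM and 42.5, 85.2 and 61.5 CPM. The lowest of the 6 levels was an injured library, so the groups overlapped. The ratio was 1.29 with an interval of 0.717 to 2.43, and with 17 uninjured counts a 2-fold difference in favour of the injured group could not be told from none.

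**Figure D2:**
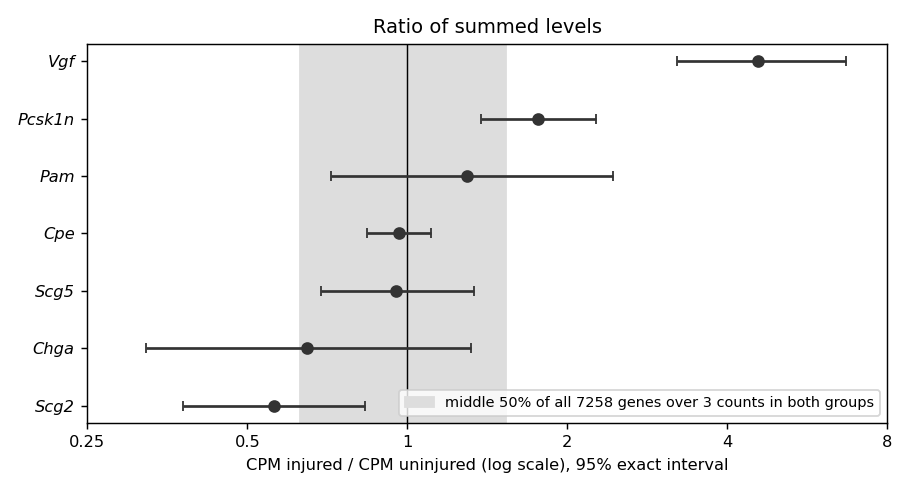
Ratio of injured to uninjured CPM (horizontal log axis) for the 7 genes with more than 3 counts in both groups; points are ratios of summed counts and bars are 95% exact intervals. The grey band holds the middle 50% of all 7258 genes measured by the same rule, from 0.629 to 1.53; the points of Vgf (4.57), Pcsk1n (1.76) and Scg2 (0.560) lie outside it.

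Across the table, edgeR's quasi-likelihood test was run on the 3158 genes left by a filter on low counts, with a Benjamini-Hochberg threshold of 0.05. Its spread comes from libraries that were counted as 1 sample, so it speaks of the reads of these 2 samples and not of the conditions. It called 47.0% of the genes tested, 24.9% higher and 22.1% lower in the injured group. Of the 8 genes of the set, 5 were tested, and 3 of these were called: Vgf and Pcsk1n higher and Scg2 lower. Cpe and Scg5 were tested and not called. Chga, Chgb and Pam did not pass the filter, which asks for about 61.0 CPM in at least 3 libraries. Vgf passed it with 3 injured and only 2 uninjured libraries, so its own high level let it in. Since 47.0% of all genes tested were called, 3 calls among 5 tested genes are no result about the set as a whole.

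On the scale of that test, which uses TMM (trimmed mean of M-values) scaling, ratios of injured to uninjured were a little lower than in CPM. They were 4.32 for Vgf and 1.67 for Pcsk1n. For Scg2 the difference was thereby larger, at 1.87-fold in favour of the uninjured group against 1.79-fold in CPM. The calls differed in how far they depended on the processing. Vgf and Pcsk1n were both called higher in 14 of 16 alternatives, and the 2 exceptions assumed a spread between animals. The 14 reuse the same libraries, so their agreement is no check on a spread between animals. The call of Scg2 was lost in DESeq2 (adjusted p = 0.104), in edgeR without the filter on low counts (adjusted p = 0.0708) and without the third uninjured library. When the spread between animals, which these libraries do not measure, was assumed to be a coefficient of variation of 0.2, only Vgf was called, and with 0.4 none of the 8 was.

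The set was spread over much of the range of the table. Ranks are given over the 7258 genes with more than 3 counts in both groups, a rule that 7 of the 8 genes met and that leaves out genes nearly absent from 1 group. Vgf lay above 98.3% of these genes, Pcsk1n above 80.5%, Pam above 66.1%, Cpe above 48.8%, Scg5 above 47.6%, Chga above 26.4% and Scg2 above 20.9%. Among the 3158 genes left by the filter of the test, which keeps genes that are nearly absent from 1 group and which Vgf passed through its injured level, Vgf lay above 95.3%. A ratio of at least 1.5 in favour of the injured group was seen in 26.2% of the 7258 genes and in 2 of the 7, Vgf and Pcsk1n. In favour of the uninjured group it was seen in 27.9% and in 2 of the 7, Scg2 and Chga, the latter with an interval that included 1. The groups did not overlap for 37.6% of the 7258 genes and for 3 of the 7. Among the genes tested by edgeR they did not overlap for 55.5% and for 3 of the 5 tested genes of the set. The median ratio was 0.965 over the 7 genes and 0.984 over the 7258.

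**Figure D3:**
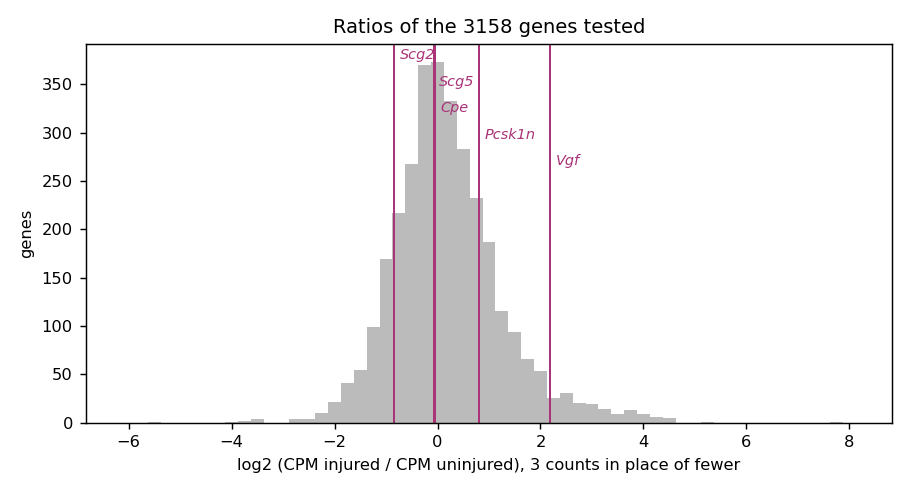
Number of genes (vertical axis) by log2 ratio of injured to uninjured CPM (horizontal axis) for the 3158 genes tested, with a group under 3 counts set to 3. Lines mark the 5 tested genes of the set: Scg2 at -0.84, Scg5 and Cpe near 0, Pcsk1n at 0.81 and Vgf at 2.19 in the upper tail.

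The genes of the set could also be compared with each other inside the same libraries, where the library total and any scaling cancel. For 21 pairs among the 7 genes, 13 had a 95% interval of the ratio of ratios that did not include 1, without adjustment for the number of pairs. The share among pairs of other genes was not computed, so this count is no result about the set as a whole. Vgf took part in 6 of these 13, as it differed from each of the others. Its ratio was 2.60 times that of Pcsk1n (1.67 to 4.10), 4.74 times that of Cpe (3.23 to 7.11) and 8.16 times that of its fellow granin Scg2 (4.73 to 14.1). Pcsk1n exceeded Cpe 1.82 times (1.37 to 2.44) and Scg2 3.14 times (1.96 to 5.02). In the order Vgf, Pcsk1n, Pam, Cpe, Scg5, Chga, Scg2, only the first pair of neighbours, Vgf and Pcsk1n, was apart by this measure. The ratio of Cpe was 1.01 times that of Scg5, with an interval of 0.703 to 1.45.

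The summed counts of the 8 genes were 595 of 349027 in the uninjured group, or 0.170% (95% Wilson interval 0.157% to 0.185%), and 1358 of 634615 in the injured group, or 0.214% (0.203% to 0.226%). By library the share was 0.156%, 0.175% and 0.181% without injury and 0.224%, 0.219% and 0.199% with injury. The injured libraries were all above the uninjured ones, and the ratio of the shares was 1.26 (1.14 to 1.38). Most of the difference was Vgf: the other 7 genes held 0.160% and 0.168%, a ratio of 1.05 (0.945 to 1.16).

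The make-up of the set differed between the groups as well. Vgf supplied 5.88% (4.26% to 8.07%) of the set's counts without injury and 21.4% (19.3% to 23.7%) with injury, with 2.76% to 7.84% in single uninjured libraries and 17.7% to 24.9% in single injured ones. Cpe went the other way, from 54.8% (50.8% to 58.7%) to 42.1% (39.5% to 44.8%), although its own level in CPM was nearly equal in both groups. Scg2 went from 9.08% (7.02% to 11.7%) to 4.05% (3.12% to 5.23%). Pcsk1n made up 14.5% (11.9% to 17.5%) and 20.3% (18.2% to 22.5%). These are shares of counts, not corrected for the length of the mRNAs, so they compare each gene with itself across the groups and do not rank the genes by molecules.

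**Figure D4:**
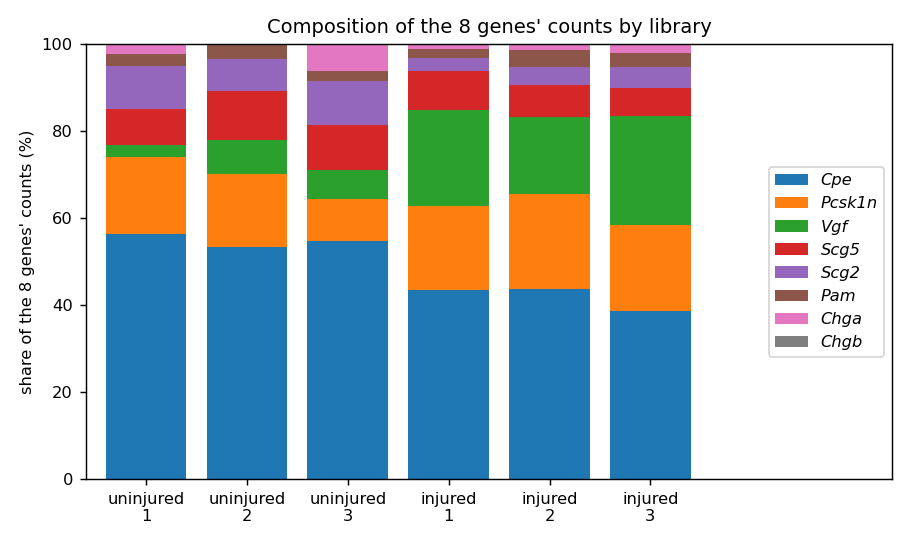
Share of the 8 genes' counts taken by each gene (percent, vertical axis, stacked from 0 to 100) in each of the 6 libraries (horizontal axis). The green Vgf segment spans 2.76% to 7.84% without injury and 17.7% to 24.9% with it, and the blue Cpe segment at the bottom is the largest in every library.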

How the data were processed

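The authors deposited unnormalized estimated counts for each Ensembl identifier. The submitters' processing notes name minimap2, Salmon and the mouse build GRCm39; versions, annotation and filters were not given in the sources used here. Reads that fit several transcripts are divided by Salmon's estimate, which leaves similar genes uncertain. Every deposited value was whole, and rounding changed none. Titles gave the groups and replicate numbers, and library names tied columns to samples. The symbols of the 8 genes came with the choice of the set; 0 of the 16976 identifiers matched the gene table used here, so lists of pathway genes and of cell type markers were not analysed here. The genes and lists were chosen with earlier results of these data known, and all 8 genes are named.

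Tests were run in R 4.3.3 with edgeR 4.0.16 (TMM, filterByExpr, quasi-likelihood test, Benjamini-Hochberg over all 3158 genes tested). The test was also tried on simulated counts with the spread of these libraries and far fewer changed genes than were called here. That trial says nothing about a spread between animals. Alternatives were limma-voom (limma 3.58.1), DESeq2 1.42.0, other scalings and filters, an exact binomial test on summed counts, assumed spreads, the replicate block and leaving out each library. The comparison between pairs of genes, the search for TGACGTCA and the sum without Vgf were added after the data were seen. If the libraries are technical, p-values measure only technical spread.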

Additional observations from a re-analysis of the deposited data

How the results depend on the processing

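Of all genes tested, 786 were called higher and 699 lower; 14 of 16 alternatives kept each count within 1.5 times. With an assumed coefficient of variation of 0.2 the counts were 305 and 176, and with 0.4 they were 42 and 5. The balance moved from 786 and 699 to 927 and 610 without TMM factors and to 948 and 582 with no filter on low counts. Leaving out 1 library gave 638 to 836 higher and 582 to 756 lower genes. Of the 8 genes of the set, the 2 called higher became 1 with a spread of 0.2 and 0 with 0.4, and were 2 without any 1 library. The 1 called lower, Scg2, became 0 with DESeq2, with no filter on low counts and with either assumed spread, and leaving out 1 library gave 0 to 1. The ratio of Chga ranged from 0.431 to 1.83 when 1 library was left out, since 13 of its 17 uninjured counts lay in 1 library. The ratio of the summed shares, 1.26, was 1.05 without Vgf. All other ratios stayed inside their counting intervals under TMM scaling, thinning of the injured counts and leaving out 1 library. The replicate block was a fit with the shared replicate number as a term. It called 750 higher and 677 lower genes and changed no call of the set. Libraries with the same number had deviations that correlated across 2976 genes at 0.0286, 0.0055 and -0.0415. Libraries of a group differed on average by little more than counting noise, so these correlations cannot tell whether same-numbered libraries were paired. Alternatives for lists of pathway genes were not run. Counts were fewest for Chgb and Pam, with 0 and 17 uninjured counts, and for Chga, which also had 17 but whose libraries disagreed. Why Chgb had so few counts was not tested.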
